A study of Rattus norvegicus with 24 samples.

Results

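The rats compared here were those given a single loud noise exposure (AS group, 5 rats) and those given none (C group, 5 rats), 10 of the 24 rats of the study, grouped by their treatment labels. Each label covers 6 rats, of which C rat 20 and AS rat 18 were left out here. The libraries of those rats had been dropped before differential expression for low quality. All were adult male Sprague-Dawley rats from Envigo. Every rat was handled and placed in a sound-attenuating chamber once a day for a week. AS rats heard a single session of white noise on the last day only, and C rats heard fan noise at the level of the home cage on every day. Both groups had a tail blood sample after that last session and were sacrificed 24 h after it. A block of tissue from the rostral posterior hypothalamus (rPH) was taken from each rat, and its polyA RNA was sequenced. The 10 remaining retained rats had 3 (RS3, 5 rats) or 7 (RS7, 5 rats) exposures. They entered the model to share the estimate of the spread between rats. The filter on low counts and the scaling of the libraries used them too. The comparison addresses whether a single exposure leaves a change in steady-state mRNA levels a day later.

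The rPH is a brain region through which several responses to stressors are coordinated, among them the release of corticosterone, and it is made of intermixed glutamatergic and GABAergic neurons with their glia and vessels. A stressor first induces immediate-early genes, which rise and return within hours, and corticosterone then acts on its nuclear receptors to change a further set of transcripts.

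In the C versus AS group comparison, 0 of 16202 genes tested were differentially expressed, which is 0% of them. The lowest Benjamini-Hochberg adjusted p of edgeR's quasi-likelihood test was 0.461, and differential expression was called at an adjusted p of 0.05 or less. At an unadjusted p under 0.05 there were 1625 genes (10.0%), of which 743 (4.59%) were higher and 882 (5.44%) lower in the AS group. No gene passed the DESeq2 Wald test or limma-voom either. In DESeq2, run without the filter on low counts, 1592 of 25606 genes (6.22%) were below an unadjusted p of 0.05. In limma-voom 1230 of 16202 (7.59%) were. The values of the 5 AS rats and the 5 C rats did not overlap in 190 genes (1.17%), with the AS rats above the C rats in 83 (0.512%) and below them in 107 (0.660%). Log2 fold changes, always AS minus C, had a median of -0.0023 and lay between -0.26 and 0.24 at the 5th and 95th percentiles. An absolute log2 fold change over 1 was found in 11 genes, 4 higher and 7 lower. Most of these were sparsely expressed, with a median of 0.794 CPM (counts scaled to the library size) over the 20 retained rats, and 4 of them had an unadjusted p under 0.05.

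A count of 0 does not say how large a change could have gone unseen, so each gene's 95% confidence interval was compared with fixed margins. The median half-width of these intervals was 0.19 on the log2 scale, or 1.14-fold. The interval lay wholly within a 1.25-fold change in either direction for 8970 genes (55.4%), within 1.5-fold for 13564 (83.7%), within 2-fold for 15635 (96.5%) and within 4-fold for 16180 (99.9%). With intervals widened by the Bonferroni correction, so that all 16202 are covered together, 11657 genes (71.9%) stayed within 2-fold and 6581 (40.6%) within 1.5-fold. The latter was 3561 (22.0%) when all 24 rats were fitted. An equivalence test, which asks by 2 one-sided tests whether a change is smaller than the margin, placed 15849 genes (97.8%) within 2-fold and 14064 (86.8%) within 1.5-fold at an adjusted p of 0.05 or less.

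The intervals were narrower at higher levels. Among the 713 genes under 1 CPM the median half-width was 0.70 on the log2 scale, and 57.5% of the intervals lay within 2-fold. From 1 to 10 CPM (5058 genes) the half-width was 0.35 and the share within 2-fold was 95.4%. From 10 to 100 CPM (8492 genes) these values were 0.16 and 99.7%, and above 100 CPM (1939 genes) they were 0.11 and 99.8%. Of the 567 genes whose interval reached 2-fold or more, 94.2% were under 10 CPM. The narrowest intervals among genes with a symbol were those of Zfp91, a zinc finger ubiquitin ligase, Ube4b, a ubiquitin chain elongation factor, and Syt11, a synaptotagmin. Zfp91 was at 257 ± 5.75 CPM (C) and 246 ± 4.82 CPM (AS) (mean ± SD, n = 5), with an interval of 0.906- to 1.01-fold. The interval of Ube4b ran from 0.921- to 1.03-fold and that of Syt11 from 0.980- to 1.10-fold.

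**Figure D1:**
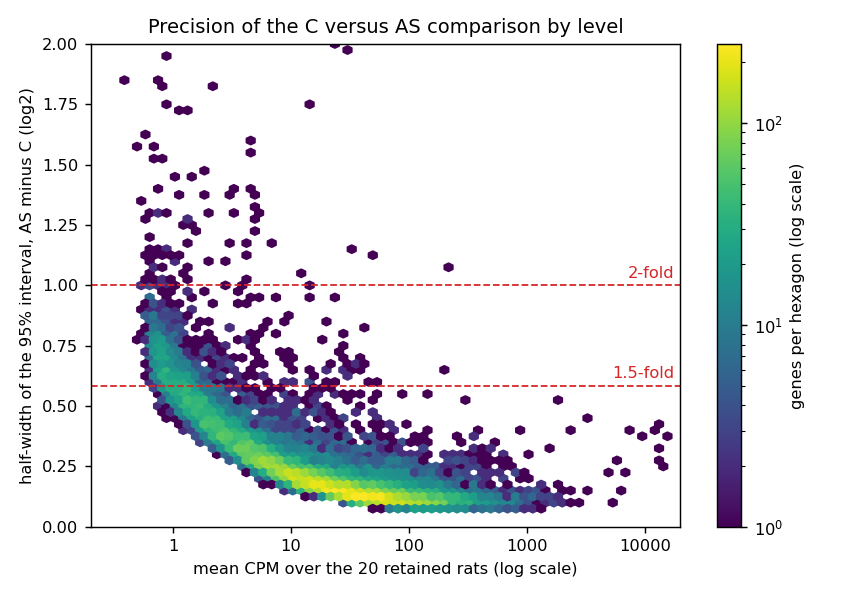
Half-width of the 95% interval of the log2 fold change (AS minus C, vertical axis) against the mean CPM over the 20 retained rats (horizontal axis, log scale) for the genes tested, with colour giving the number of genes in each hexagon and dashed lines the margins of 1.5-fold and 2-fold. The half-widths narrow from a median of 0.70 under 1 CPM to 0.11 above 100 CPM, and 7 genes lie outside the axes.

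Libraries of the C group were not alike, and the C versus AS values above and below include all 5 of them unless stated. In C rats 21 and 22 the 10 most abundant genes took 20.1% and 20.3% of the counts, against 13.6% to 14.5% in the other C rats and 12.4% to 14.7% in the AS rats. On the first principal component of the 10 rats (26.1% of the variance) these C rats lay at 31.7 and 24.9, the other C rats between -7.36 and -2.66, and the AS rats between -15.6 and -1.04. The group means of the share in the 10 most abundant genes were 16.5 ± 3.37% (C) and 13.4 ± 0.91% (AS), with p = 0.0714 in a two-sided exact permutation test over all splits of the 10 rats (0.284 after adjustment over 13 library measures). The smallest p such a test can give is 0.00794. Counted reads per rat were 8087697 to 14602689 in the C group and 10647588 to 13501169 in the AS group.

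The number of small unadjusted p-values was lower without C rats 21 and 22. One or the other held the C value lying farthest on the side away from the AS mean in 86.7% of the 1625 genes, and in 63.6% of all genes tested. With both left out, edgeR again called 0 genes, 424 genes (2.57%) had an unadjusted p under 0.05, and 264 of the 1625 were among them. The change was smaller without them in 1491 of the 1625 genes, and the median absolute log2 fold change of the 1625 was 0.12 in place of 0.21. The direction was the same in 1624. Since the values of these rats helped to choose the 1625 genes, smaller changes without them are partly built in. C rats 21 and 22 were picked by the library measures above, and no other pair was left out for comparison. Leaving out C rat 22 alone left 792 genes at an unadjusted p under 0.05 and leaving out C rat 21 left 902, while leaving out C rat 23 raised the count to 2402. Within 2-fold lay 94.1% of the intervals without both rats.

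**Figure D2:**
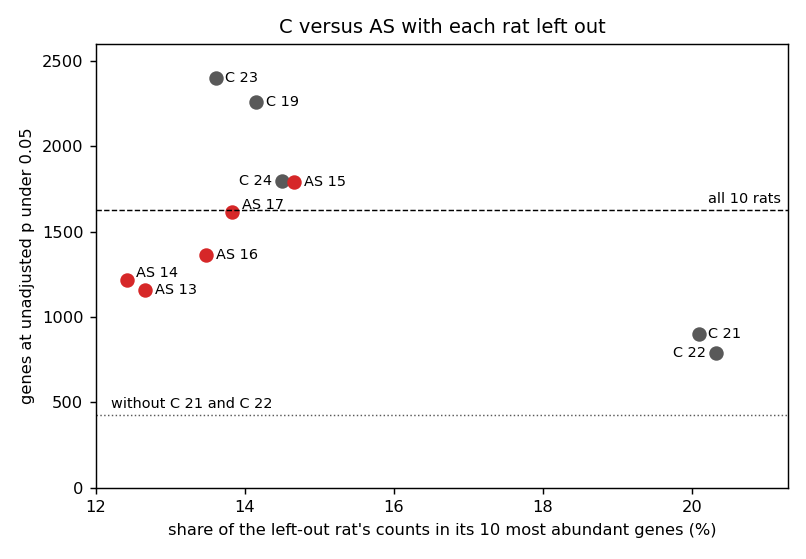
Number of genes at an unadjusted p under 0.05 in C versus AS after leaving out each rat (vertical axis) against the share of that rat's counts in its 10 most abundant genes (horizontal axis, %), C rats in grey and AS rats in red. The dashed line marks all 10 rats (1625 genes) and the dotted line the fit without C rats 21 and 22 (424 genes), and these rats stand at the right with the lowest counts when left out, 902 and 792.

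Gene symbols could be given for 726 of the genes tested. All of them stand in the study's list of genes changed in its other group comparisons on these same rats, so they are not a sample of all genes. At an unadjusted p under 0.05 were 132 of the 726 (18.2%, against 10.0% of all genes tested), and 0 were called. The intervals of 713 lay within 2-fold. Those other comparisons include AS versus RS7 and C versus RS7, so the AS and C values helped to choose the 726 genes. The higher share of small p-values is therefore not a result about them. The 13 lists of pathway and marker genes described next hold 114 different genes with a symbol, of which 0 were called, 10 (8.77%) had an unadjusted p under 0.05, and 108 (94.7%) had an interval within 2-fold. The values of the AS and C rats overlapped in all 114. Of the 10 genes, 3 also had an unadjusted p under 0.05 without C rats 21 and 22, namely Ppp3ca, Grin2b and Kcnh5. The values of each gene below are listed in the order of C rats 19, 21, 22, 23 and 24 and AS rats 13, 14, 15, 16 and 17.

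Genes of neuronal activity and of the stress hormone response showed no called change. Of 32 listed genes 12 had an identifier (Fos, Egr1, Nr4a1 and Fkbp5 had none and were not analysed here), and 5 were higher and 7 lower in the AS group, with a median log2 fold change of -0.049. Arc (ENSRNOG00000043465), an immediate-early gene that acts in the removal of glutamate receptors from synapses, had 7.09, 5.46, 5.34, 3.89 and 6.98 CPM in the C rats and 6.69, 9.87, 6.51, 6.13 and 6.22 CPM in the AS rats. AS rat 14 had the highest value and the remaining AS rats lay inside the range of the C rats. The log2 fold change of Arc was 0.16 without that rat and 0.30 with it (standard error 0.17, interval 0.970- to 1.57-fold, edgeR unadjusted p = 0.0845, adjusted p = 0.541). Plk2 (ENSRNOG00000011951), a kinase induced by synaptic activity, had the lowest p of the list. It was at 29.7, 33.8, 29.3, 26.9 and 29.4 CPM in the C rats and 24.1, 29.0, 24.6, 27.3 and 26.8 CPM in the AS rats. The groups overlapped, with 3 AS rats below the lowest C value and C rat 21 highest. Its log2 fold change was -0.17 (interval 0.792- to 0.996-fold, edgeR unadjusted p = 0.0433, adjusted p = 0.484), and -0.12 without C rats 21 and 22 (edgeR unadjusted p = 0.198). Among transcripts that corticosterone raises, Klf9, a transcription factor, had a log2 fold change of -0.13 (interval 0.829- to 1.01-fold) and Cdkn1a, a cell cycle inhibitor, -0.12 (0.781- to 1.08-fold). The largest difference of the list was in Hspa1a, the inducible heat shock protein 70, whose reads may be shared with a near-identical copy. The estimate on the log2 scale was -0.32 (interval 0.636- to 1.01-fold, edgeR unadjusted p = 0.0586, adjusted p = 0.510). All 12 intervals lay within 2-fold and 10 within 1.5-fold.

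**Figure D3:**
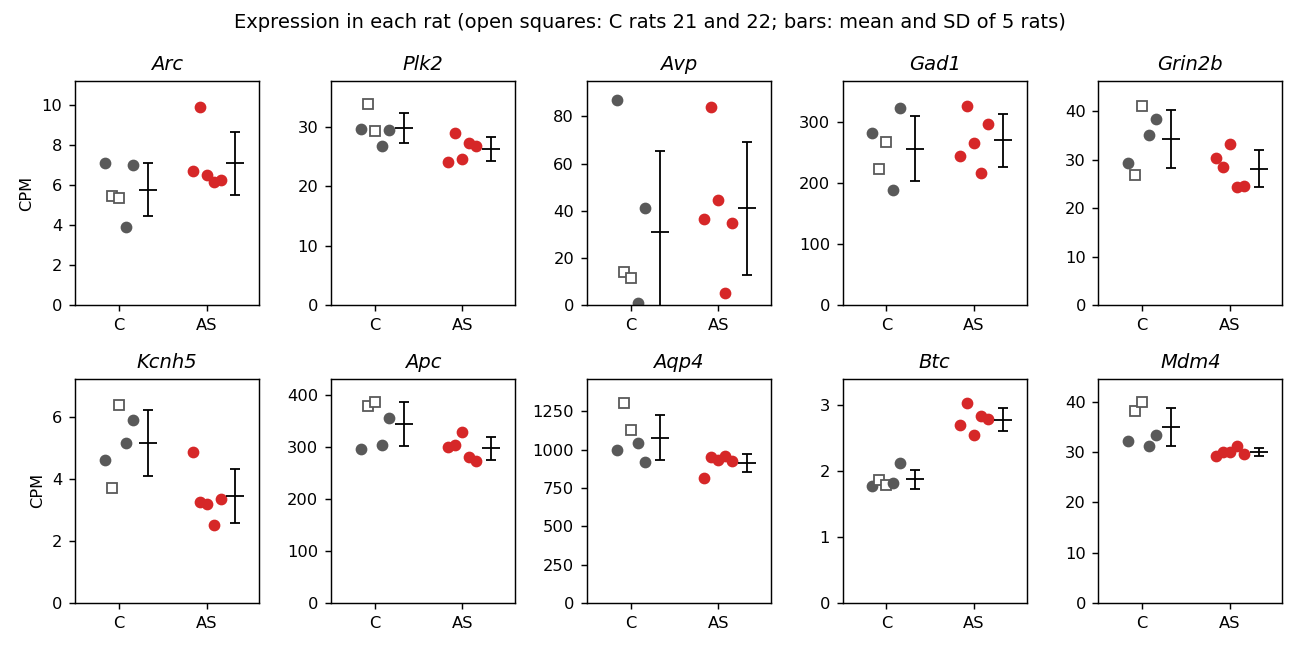
CPM in each of the 5 C rats (grey) and 5 AS rats (red) for 10 genes described in the text, with C rats 21 and 22 as open squares and the mean and SD of the 5 rats as bars beside them (the lower bar of Avp in the C group ends at the axis). The groups overlap in 8 genes, and in Btc and Mdm4 they do not.

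The stress peptides and their receptors were the list with the widest intervals, at a median half-width of 0.51 on the log2 scale. Of 30 genes 17 had an identifier, 6 higher and 11 lower, 0 had an unadjusted p under 0.05, and 13 had an interval within 2-fold. Avp (ENSRNOG00000021229) encodes vasopressin, which drives the pituitary stress response together with corticotropin-releasing hormone. It was at 86.8, 14.0, 11.7, 1.07 and 41.2 CPM in the C rats and 36.4, 84.1, 44.5, 5.11 and 35.0 CPM in the AS rats. Both groups spread over more than 10-fold, with C rat 23 and AS rat 16 lowest and C rat 19 and AS rat 14 highest. The log2 fold change of Avp was 0.38 (standard error 0.94), and its interval of 0.326- to 5.18-fold was the widest of the genes with a symbol. Oxt, the oxytocin gene, was at 123, 14.1, 19.2, 0.604 and 80.7 CPM in the C rats and 42.6, 143, 48.8, 4.01 and 51.3 CPM in the AS rats. The same rats were lowest and highest in each group as for Avp. Its interval ran from 0.305- to 4.70-fold, and the sign of both genes turned without C rats 21 and 22 (log2 fold change -0.059 for Avp and -0.22 for Oxt). Trh, thyrotropin-releasing hormone, had an interval of 0.535- to 2.66-fold. These genes mark neurosecretory cells, and in bulk tissue fewer cells of a type and less RNA per cell cannot be told apart. Penk, the enkephalin precursor, was at 60.2 ± 15.8 CPM (C) and 53.8 ± 12.1 CPM (AS), with an interval of 0.652- to 1.24-fold. Kiss1r, the kisspeptin receptor, had the lowest p of the list, with a log2 fold change of 0.29 (interval 0.963- to 1.54-fold, edgeR unadjusted p = 0.0954, adjusted p = 0.550).

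The GABA list covers synthesis, vesicle loading and receptors of the main inhibitory transmitter. Of 17 genes 8 had an identifier, 4 higher and 4 lower, with 0 at an unadjusted p under 0.05 and a median log2 fold change of -0.020. Gad1 (ENSRNOG00000000007), which encodes the glutamate decarboxylase that makes most GABA, was at 283, 223, 268, 188 and 323 CPM in the C rats and 245, 327, 266, 217 and 297 CPM in the AS rats. C rat 23 was lowest, C rat 24 and AS rat 14 were near the top, and the group ranges overlapped over most of their length. The log2 fold change came to 0.073 (interval 0.870- to 1.27-fold, edgeR unadjusted p = 0.581). For Gad2, the second decarboxylase, the log2 fold change was -0.057 (interval 0.782- to 1.18-fold), and for Slc32a1, the vesicular GABA transporter, 0.092 (0.880- to 1.29-fold). Gabrd, a subunit of extrasynaptic receptors, had the largest estimate, 0.19, and the one interval of the list that reached 1.5-fold (0.852- to 1.53-fold).

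Of the glutamate and calcium signaling list, 11 of 19 genes had an identifier, 3 higher and 8 lower, and all 11 intervals lay within 2-fold. Ppp3ca and Grin2b had an unadjusted p under 0.05, both with lower means in the AS group. Ppp3ca (ENSRNOG00000009882), the catalytic subunit of the calcium-dependent phosphatase calcineurin, was at 255, 255, 259, 269 and 246 CPM in the C rats and 217, 223, 255, 233 and 232 CPM in the AS rats. Of the AS rats, 4 lay below all C rats and AS rat 15 lay among them. Its estimated log2 fold change was -0.15 (standard error 0.053, interval 0.837- to 0.974-fold, edgeR unadjusted p = 0.0102, adjusted p = 0.461) and was -0.15 without C rats 21 and 22. Grin2b (ENSRNOG00000008766) encodes an NMDA receptor subunit. Its values were 29.4, 26.9, 41.2, 35.0 and 38.5 CPM in the C rats and 30.3, 28.5, 33.2, 24.3 and 24.6 CPM in the AS rats, with C rats 19 and 21 inside the AS range. The log2 fold change was -0.28 (interval 0.695- to 0.970-fold, edgeR unadjusted p = 0.0225, adjusted p = 0.461). Grin2a, a further NMDA receptor subunit, had a similar estimate, -0.27 (interval 0.659- to 1.05-fold, edgeR unadjusted p = 0.112), and the kinase gene Camk4 had -0.21 (0.723- to 1.03-fold). Slc17a6, the vesicular glutamate transporter of subcortical neurons, had 578 ± 65.1 CPM (C) and 610.0 ± 86.2 CPM (AS), with an interval of 0.914- to 1.22-fold.

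Among 15 potassium channel genes, all with an identifier, 4 were higher and 11 lower, and 2 had an unadjusted p under 0.05. Kcnh5 (ENSRNOG00000009542), a channel of the ether-a-go-go family, was at 4.63, 3.73, 6.39, 5.17 and 5.92 CPM in the C rats and 4.87, 3.26, 3.21, 2.52 and 3.36 CPM in the AS rats. The ranges overlapped. The log2 fold change of Kcnh5 was -0.59 (interval 0.491- to 0.904-fold, edgeR unadjusted p = 0.0110, adjusted p = 0.461) and -0.59 without C rats 21 and 22 (edgeR unadjusted p = 0.0199). Kcnj4, an inward rectifier, had the largest estimate, 0.64, at 2.02 ± 0.626 CPM (C) and 3.15 ± 1.14 CPM (AS). AS rat 14 was at 4.97 CPM, against 2.12 to 3.27 CPM in the other AS rats, and the estimate was 0.41 without it. With all rats, the intervals of Kcnj4 (0.949- to 2.57-fold) and Kcnh5 were the ones in this list that reached 2-fold.

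Wnt ligands act through Frizzled receptors, which keep beta-catenin from being degraded by a complex built on the scaffold protein encoded by Apc. Of 15 genes 14 had an identifier, 8 higher and 6 lower, with all 14 intervals within 2-fold. The median log2 fold change of the list was 0.082, and -0.029 without C rats 21 and 22. Apc (ENSRNOG00000020423) was at 296, 379, 386, 304 and 357 CPM in the C rats and 299.6, 304, 328, 281 and 273 CPM in the AS rats. C rats 21 and 22 were highest, while C rats 19 and 23 lay inside the AS range. The estimate on the log2 scale was -0.21 (interval 0.776- to 0.961-fold, edgeR unadjusted p = 0.00951, adjusted p = 0.461), and -0.10 without C rats 21 and 22 (edgeR unadjusted p = 0.186). Ctnnb1, which encodes beta-catenin, had a log2 fold change of 0.16 (edgeR unadjusted p = 0.0451, adjusted p = 0.486), and 0.051 without them (edgeR unadjusted p = 0.459). The ligand gene Wnt4 had 0.24 (interval 0.958- to 1.45-fold) and the receptor gene Fzd3 had -0.27 (0.661- to 1.04-fold).

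Transcription factors that set regional identity in the hypothalamus and thalamus were 22 genes, of which 18 had an identifier, 4 higher and 14 lower, with all 18 intervals within 2-fold. Nr2f2, an orphan nuclear receptor, was the 1 gene of the list with an unadjusted p under 0.05. It was at 72.2, 77.2, 73.7, 59.9 and 73.4 CPM in the C rats and 58.5, 66.3, 70.4, 52.9 and 62.3 CPM in the AS rats, and C rat 23 lay among the AS rats. The log2 fold change came to -0.20 (interval 0.780- to 0.977-fold, edgeR unadjusted p = 0.0198, adjusted p = 0.461), and -0.14 without C rats 21 and 22 (edgeR unadjusted p = 0.127). The largest estimate was that of Dlx5, a homeobox gene of GABAergic neurons, -0.37 with an interval of 0.500- to 1.19-fold. Isl1, a LIM homeobox gene, had an interval of 0.685- to 1.86-fold, and Foxp2, a forkhead gene, one of 0.832- to 1.14-fold. A further list held 4 transcription factors that the study linked to repeated exposure from these same rats. All 4 had lower means in the AS group, 0 had an unadjusted p under 0.05, and their median log2 fold change was -0.14. Zmat4 differed least, with a log2 fold change of -0.010. The study drew these factors in part from AS versus RS7, so the AS values themselves could have helped to choose them. Their shared direction is therefore not a result about them. Csrnp3 had the lowest p, with a log2 fold change of -0.23 (interval 0.712- to 1.02-fold, edgeR unadjusted p = 0.0728). Dlx6 had -0.24 (0.647- to 1.12-fold) and Myt1l, a neuronal zinc finger factor, -0.052 (0.887- to 1.05-fold).

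**Figure D4:**
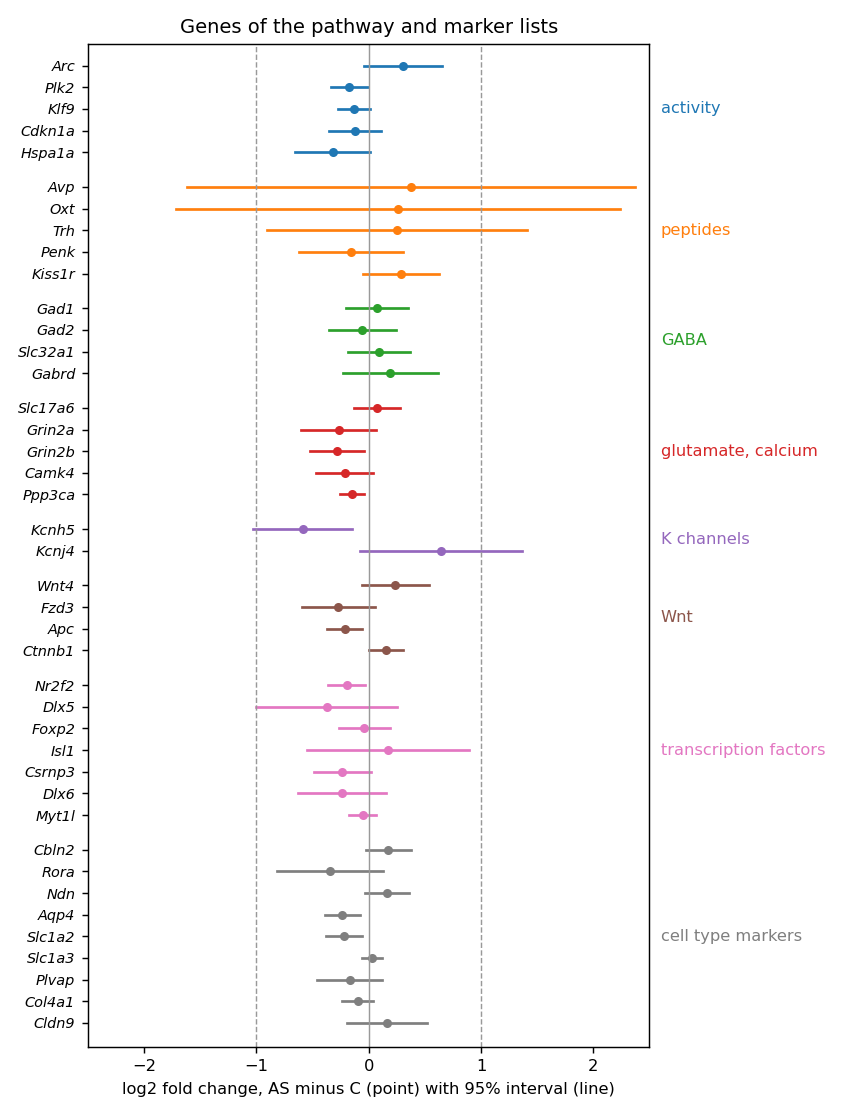
Log2 fold change (AS minus C, points) with its 95% interval (lines) for genes of the pathway and marker lists, grouped by list, with dashed lines at a 2-fold change. The intervals of Avp, Oxt, Trh, Kcnh5 and Kcnj4 reach past 2-fold, and those of the other genes drawn stay within it.

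Markers of neurosecretory hypothalamus and of dorsal thalamus were measured in all 10 rats, and neither set is specific to the rPH. The summed CPM of 9 neurosecretory hypothalamus genes was 802 to 1308 in the C group and 974 to 1276 in the AS group. Most of it came from Nnat, Ndn and Baiap3, with means of 504, 264 and 143 CPM (C) and 439, 297 and 165 CPM (AS). Avp, Oxt and Trh had means of 31.0, 47.5 and 42.5 CPM (C) and 41.0, 58.0 and 50.8 CPM (AS), so the sum says little about them. Markers of the dorsal thalamus, which adjoins the block, were also present, with a summed CPM over 6 genes of 844 to 1126 in the C group and 897 to 1233 in the AS group. Of this sum Slc17a6, which hypothalamic glutamatergic neurons also use, made up 57.0% (C) and 58.0% (AS) of the mean, and without it the sums were 358 to 474 CPM in the C group and 379 to 513 CPM in the AS group. Cbln2, a synaptic organizer, had a log2 fold change of 0.18 (interval 0.983- to 1.30-fold), Rora, a nuclear receptor of thalamic neurons, -0.34 (0.568- to 1.09-fold, and -0.14 without C rat 22), and the hypothalamic gene Ndn, a product of an imprinted locus, 0.17 (0.980- to 1.29-fold). Exact permutation tests of these sums gave p = 0.865 (neurosecretory), 0.675 (thalamus) and 0.881 (thalamus without Slc17a6, added after the data had been seen).

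Glial and vessel markers could be followed in part. Of 8 astrocyte genes 3 had an identifier, and their summed level was 1945, 2295, 2121, 1999.65 and 1888 CPM in the C rats and 1751, 1913, 1889, 1866 and 1945 CPM in the AS rats (exact permutation p = 0.0556, 0.284 after adjustment over 13 library measures). C rats 21 and 22 had the highest sums. Aqp4 (ENSRNOG00000016043), the water channel of astrocyte endfeet, was at 995, 1305, 1127, 1043 and 918 CPM in the C rats and 813, 949.5, 933, 959.6 and 923 CPM in the AS rats. The ranges overlapped, with C rat 21 highest of all and AS rat 13 lowest. Its estimated log2 fold change was -0.23 (interval 0.764- to 0.945-fold, edgeR unadjusted p = 0.00432, adjusted p = 0.461), and -0.11 without C rats 21 and 22 (edgeR unadjusted p = 0.132). The glutamate transporter gene Slc1a2 had -0.22 (edgeR unadjusted p = 0.0104), and -0.14 without them (edgeR unadjusted p = 0.0822). Slc1a3, the other astrocyte glutamate transporter, had 753 ± 21.4 CPM (C) and 769 ± 37.1 CPM (AS), with an interval of 0.959- to 1.09-fold. Of the vessel markers 3 had an identifier, 1 higher (log2 fold change 0.033) and 2 lower. The lower ones, Plvap and Col4a1, had intervals of 0.727- to 1.09-fold and 0.848- to 1.03-fold. Of the choroid plexus and ependyma markers 4 had an identifier, 4 higher and 0 lower, and Cldn9 had an interval of 0.872- to 1.44-fold. The summed level of 3 vessel genes was 108 to 129 CPM in the C group and 103 to 120.3 CPM in the AS group, and that of 4 choroid plexus and ependyma genes was 16.5 to 22.4 CPM and 16.0 to 24.5 CPM. Markers of oligodendrocytes and microglia had no identifier among the symbols used and were not analysed here.

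Genes whose 5 AS values lay all above or all below the 5 C values are described next, without a call. Those with a symbol were in part chosen by these same AS and C values, since the symbols come from the study's other comparisons. With AS above C there were 4 genes with a symbol. Btc (ENSRNOG00000002728), a ligand of the epidermal growth factor receptor family, was at 1.77, 1.86, 1.78, 1.81 and 2.12 CPM in the C rats and 2.69, 3.02, 2.55, 2.83 and 2.78 CPM in the AS rats. The lowest AS rat was above the highest C rat. Its log2 fold change was 0.57 (standard error 0.16, interval 1.19- to 1.86-fold, edgeR unadjusted p = 0.00125, adjusted p = 0.461), and 0.55 without C rats 21 and 22. Disp3, a membrane protein of the Dispatched family, was at 10.7, 7.85, 9.01, 6.38 and 11.2 CPM in the C rats and 13.9, 12.6, 12.5, 13.6 and 13.4 CPM in the AS rats, with a log2 fold change of 0.55 (interval 1.18- to 1.81-fold, edgeR unadjusted p = 0.00128, adjusted p = 0.461). C rat 23 was lowest and the AS rats lay close together. Akr1b1-ps2, a pseudogene whose reads may be shared with its parent gene, had a log2 fold change of 0.22. The membrane protein gene Tmem19 had 0.23, and each had an adjusted edgeR p of 0.461. Without C rats 21 and 22 the log2 fold changes of Disp3, Akr1b1-ps2 and Tmem19 were 0.50, 0.19 and 0.16. Among genes without a symbol the lowest p-values were those of ENSRNOG00000047112, at 4.88 ± 0.210 CPM (C) and 6.54 ± 0.227 CPM (AS), and ENSRNOG00000016976, at 39.8 ± 3.54 and 47.2 ± 2.86 CPM. Their log2 fold changes were 0.42 and 0.24, and 0.42 and 0.16 without C rats 21 and 22.

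With AS below C, the 8 genes with a symbol and the lowest p were Ankrd12, Mdm4, Iws1, Ankdd1a, Dynlt1, Krt77, Greb1 and Macf1. Mdm4 (ENSRNOG00000009696), an inhibitor of p53, was at 32.3, 38.2, 40.0, 31.2 and 33.4 CPM in the C rats and 29.2, 30.0, 30.1, 31.2 and 29.7 CPM in the AS rats. C rats 21 and 22 were highest, and C rat 23 exceeded AS rat 16 by less than the spread within either group. The estimate on the log2 scale was -0.21 (interval 0.779- to 0.955-fold, edgeR unadjusted p = 0.00627, adjusted p = 0.461), and -0.10 without C rats 21 and 22 (edgeR unadjusted p = 0.147). Ankrd12, an ankyrin repeat protein gene, was at 143 ± 11.9 CPM (C) and 122 ± 7.31 CPM (AS), a log2 fold change of -0.22, and -0.15 without those rats. Iws1, a factor of transcription elongation, had -0.18, and -0.20 without them. Dynlt1, a dynein light chain gene with close copies, had -0.31, and -0.13 without them. Macf1, which links actin and microtubules, had -0.11 (interval 0.869- to 0.988-fold). The widest intervals of these 8 genes were those of Ankdd1a (0.470- to 0.914-fold) and Krt77, a keratin (0.444- to 0.926-fold), both near 2 CPM, and Greb1, a gene responsive to estrogen, had 0.689- to 0.968-fold. Among genes without a symbol ENSRNOG00000049662 had the lowest p of all genes, with 6.58 ± 0.590 CPM (C), 4.31 ± 0.615 CPM (AS) and a log2 fold change of -0.60 (interval 0.558- to 0.782-fold, edgeR unadjusted p = 3.3e-05, adjusted p = 0.461). ENSRNOG00000056716 had -0.55.

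Genes called after 7 exposures were also looked up in the C versus AS comparison. In the same fit 24 genes (0.148%) were called in C versus RS7. That number rested on single rats, since in fits added after the data had been seen the count fell to 0 when rat 19 or 21 of the C group, or rat 3 or 6 of the RS7 group, was left out, and ranged from 7 to 560 when any other rat was. The 560 calls came without RS7 rat 4, whose 10 most abundant genes took 18.8% of its counts. In C rats 21, 22 and 23 that share was 20.1%, 20.3% and 13.6%. Leaving out each of them gave 0, 39 and 241 calls. A link between the share and the calls was not tested. With DESeq2 on the same retained rats the study reported many more genes in C versus RS7, and that test was not run here for this comparison. C versus AS and C versus RS7 share the same 5 C rats, so their values are given side by side and are not independent. The RS7 values chose the genes. Of the 24 genes, 0 were called in C versus AS and 5 (20.8%, against 10.0% of all genes tested) had an unadjusted p under 0.05. The C versus AS interval lay within 1.5-fold for 20 (83.3%, against 83.7% of all) and within 2-fold for 22 (91.7%, against 96.5%), so these shares say nothing particular about the 24. Foxp2 had log2 fold changes of -0.038 (AS, interval 0.832- to 1.14-fold) and 0.62 (RS7). The protein kinase C gene Prkcq had 0.10 (AS, interval 0.899- to 1.28-fold) and 0.70 (RS7), and its AS estimate was 0.020 without C rat 21 and 0.22 without C rat 23. For Kcnh5 the estimates had opposite signs, -0.59 (AS) and 1.06 (RS7). Ankdd1a and Greb1 were lower in both, with -0.61 and -0.29 (AS) and -1.15 and -0.66 (RS7).

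**Figure D5:**
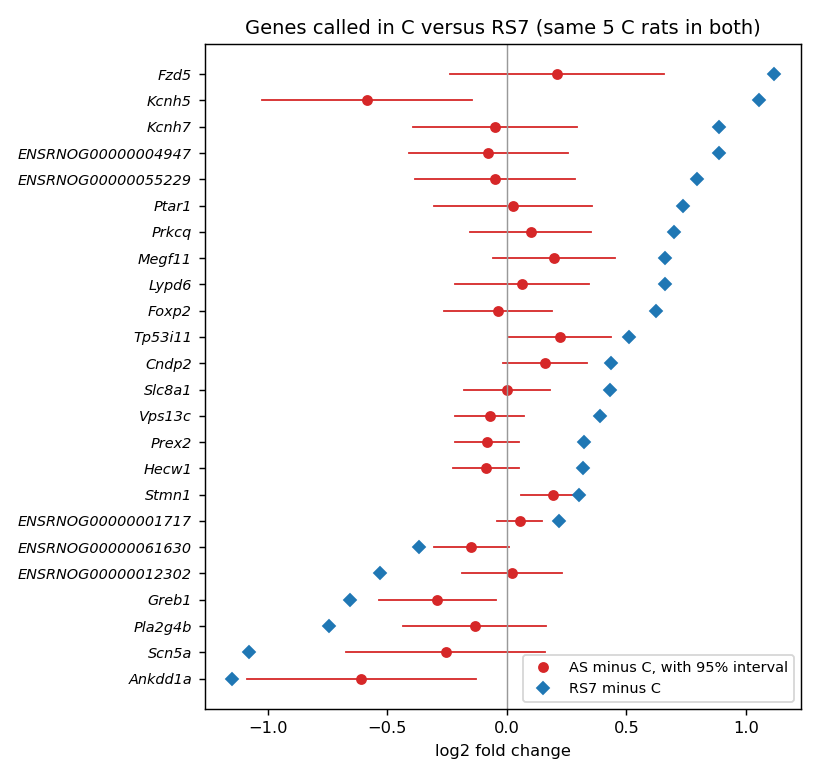
Log2 fold changes of the 24 genes called in C versus RS7 (vertical axis), with AS minus C as red points with 95% intervals and RS7 minus C as blue diamonds, both computed against the same 5 C rats. The C versus AS intervals of 20 genes lie within 1.5-fold, and Kcnh5 is the gene farthest from 0 in the direction opposite to RS7.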

How the data were processed

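RNA was measured in tissue blocks of 24 rats, and the authors deposited a table of raw counts of reads per Ensembl gene for all of them (32883 genes, 7066 with 0 counts in every rat). Per the study's methods and the submitters' processing notes, reads were trimmed with Trimmomatic 0.36, mapped to rn6 with HISAT2 2.0.5 and counted with featureCounts of Subread, followed by DESeq2 in R 4.0.2. Strandedness of the counting is not given in the sources used here, so genes that overlap could share reads. How reads that map to several places were counted is not given either, so genes with close copies could share reads too. Groups came from the treatment labels. Left out were rat 20 (C), rat 18 (AS), rat 8 (RS3) and rat 1 (RS7), since the 20 remaining rats gave the authors' mean count for all 808 genes of their gene list (relative tolerance 1e-05). The 0 deposited columns outside these samples needed no exclusion. The list served otherwise only to name genes. Of its genes 726 had a single usable symbol, and 0 identifiers matched the reference table.

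Here the counts were fitted in R 4.3.3 with edgeR 4.0.16 (filterByExpr with a minimum count of 10, TMM, robust quasi-likelihood F-test, 4 groups in 1 model), with Benjamini-Hochberg adjustment over all 16202 genes. CPM values used TMM-scaled library sizes. Each 95% interval was the unshrunk log2 fold change plus or minus the t quantile times a standard error from the fitted weights and moderated quasi-dispersion. Rats are separate animals, and nothing pairs C with AS rats. The shallowest retained rat had 8087697 counts, so that a gene at 1 CPM rests on few reads there. Alternatives were all 24 rats, only C and AS rats, DESeq2 size factors, no filter, the DESeq2 Wald test (1.42.0), limma-voom with quality weights (limma 3.58.1), thinning to 8087697 counts, the share of the 10 most abundant genes as covariate, and leaving out single rats or C rats 21 and 22. Genes named were, per list, the lowest p, the largest change and defining members, the 8 genes with a symbol (or as many as there were) and 2 without with the lowest p per direction among groups without overlap, and the 3 narrowest and widest intervals. Some genes that this rule names are not reported here. The 24 genes called in C versus RS7 were added after their values were seen. The comparison and the lists were chosen with earlier results of these data known. The fits were also run on simulated counts with known changes, drawn independently and without a library shift like that of C rats 21 and 22. Such counts cannot show whether the intervals hold in these rats.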

Additional observations from a re-analysis of the deposited data

Results flagged for a closer look

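Values of the named genes and library measures were screened for a rat far from the other 4 of its group, by the gap to its nearest neighbour over the group's range. Of 144 groups of 5 values, 8 passed the 95% limit, and chance alone passes about 5% of groups. Arc was at 9.87 CPM in AS rat 14, against 6.13 to 6.69 CPM in the other AS rats, and without this rat the log2 fold change of Arc was 0.16 in place of 0.30. Klf9 was at 95.8 CPM in AS rat 15 (others 78.5 to 80.7). AS rat 15 was also high for the ubiquitin ligase gene Ube4b, at 120.8 CPM (others 113 to 114). Nr2f2 was at 59.9 CPM in C rat 23 (others 72.2 to 77.2), which lies inside the AS range. Aqp4 was at 813 CPM in AS rat 13 (others 923 to 959.6). Btc was at 2.12 CPM in C rat 24 (others 1.77 to 1.86), the C value nearest to the AS rats. Syt11 was at 1181 CPM in C rat 23 (others 1132 to 1144) and at 1244 CPM in AS rat 13 (others 1166 to 1184).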

How the results depend on the processing

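No gene was called by edgeR, DESeq2 or limma-voom under any alternative run except 1. With a covariate for how much of each library its 10 most abundant genes took, edgeR called 1 gene, ENSRNOG00000020411 (log2 fold change 0.35, adjusted p = 0.0377, against 0.23 and 0.461 without the covariate, all 5 AS rats above all 5 C rats). The count at an unadjusted p under 0.05, 1625 as reported, was 736 in all 24 rats, 479 with that covariate and 424 without C rats 21 and 22, and 792 to 2402 with each rat left out. The genes whose 95% interval lay within 2-fold (15456 to 15593 with each rat left out) or within 1.5-fold (13027 to 13492), and those within 2-fold by the equivalence test (15733 to 15859), stayed within 1.5 times the counts reported under all alternatives. Their shares did not, since more genes were tested without the filter on low counts (62.1% of intervals within 2-fold and 53.0% within 1.5-fold) and in DESeq2 (61.3% and 52.3%). The median half-width was 0.20 to 0.21 with each rat left out and 0.37 in DESeq2, which tested 25606 genes without the filter on low counts. No paired analysis was possible because the rat numbers of the C and AS groups do not repeat.

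Of 62 named genes, 51 kept the sign of their log2 fold change under all 19 alternatives. The sign turned in all 24 rats for Klf9 (0.045), Penk (0.31), Foxp2 (0.080) and Zfp91 (0.097), with the covariate for Oxt (-0.34), Penk (0.058) and Slc17a6 (-0.037), and without C rats 21 and 22 for Avp (-0.059), Oxt (-0.22) and Slc17a6 (-0.027). With each rat left out the log2 fold changes ran from -0.062 to 1.28 for Avp, -0.40 to 1.01 for Oxt, -0.010 to 0.47 for Trh, -0.022 to 0.17 for Gad1, -0.17 to 0.012 for Gad2, -0.12 to 0.077 for Foxp2 and -0.033 to 0.31 for Isl1. In 22 genes the sign held with each rat left out and the estimate moved by over 1.5 times with at least 1, among them Rora (-0.50 to -0.14), Cdkn1a (-0.18 to -0.050), Gabrd (0.094 to 0.28), Dlx6 (-0.36 to -0.13) and Prkcq (0.020 to 0.22). The cause of these turns and moves was not tested, and none of these genes was called under any alternative. Precision was lowest in the genes under 1 CPM, of which 57.5% had an interval within 2-fold. Thinning to the shallowest library moved the median half-width over all genes from 0.19 to 0.21, and was not broken down by level.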
